A study of Mus musculus with 6 samples.

Results

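Scx, Mkx, Egr1, Egr2, Six2, Eya1, Eya2 and Tnmd are the transcription factors and coactivators that have been tied to tendon formation, together with tenomodulin, the membrane protein that marks tendon cells. They were taken by gene symbol from a deposited RNA-seq table of mouse tendon stem/progenitor cells, and all 8 were found among its 15711 genes. The study compared cells sorted as Vldlr-positive with cells sorted as Vldlr-negative, 3 libraries each, to learn what the Vldlr-positive cells do in tendon regeneration. Vldlr encodes a lipoprotein receptor that also binds reelin. Both populations came from the Col1a1 lineage of tendon, marked by a Cre driven by the Col1a1 promoter and a YFP reporter, so neither population is free of that Cre and reporter. The number after Col1 alpha in the genotype label runs upward from sample to sample, and the 6 labels were read as the same genotype. After sorting, the cells were kept in DMEM with 20% fetal bovine serum before RNA was taken, so the levels are those of cultured cells. No age, sex or treatment is given in the labels, nor whether the libraries of a group came from separate cultures or animals. The p-values therefore measure the spread between these libraries, which may be technical.

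Scleraxis (Scx) is a basic helix-loop-helix factor that is switched on early in tendon progenitors and acts as a dimer with E proteins, while Id proteins block such dimers. Mohawk (Mkx) is a homeobox factor of the TALE class, needed for the collagen fibrils of postnatal tendon, and Egr1 and Egr2 are zinc finger factors that respond fast to serum and to stretch and act on collagen genes in tendon. Six2 is a homeobox factor, and the Eya proteins are phosphatases and coactivators that bind Six-family factors; both families are expressed in limb connective tissue and muscle. Tenomodulin (Tnmd), a type II membrane protein with a BRICHOS domain, is known in mouse to depend on Scx and marks more mature tendon cells.

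The deposited values are RPKM (reads divided by exon length in kb and by library size), so that levels of different genes can be compared per length. Depth was even, with 17660241 to 17719560 reads per Vldlr-positive library and 17280540 to 17348846 per Vldlr-negative library, worked out from the RPKM values and exon lengths. The sort label could not be checked on Vldlr itself. It was listed at 4.73, 3.97 and 3.70 RPKM in the Vldlr-positive libraries, against 0.961, 0.959 and 0.467 RPKM in the Vldlr-negative libraries. Those 3 Vldlr-negative values were the only ones in the table that did not equal whole reads among 15691 genes with a known length. Fibroblast genes dominated both populations, Col1a1 and Col1a2 among them. Their summed levels over 8 genes were 8785 to 9161 RPKM in the Vldlr-positive and 5216 to 5478 RPKM in the Vldlr-negative libraries. In the Vldlr-negative libraries Col3a1 was above Col1a2, at 1079 ± 42.1 against 787 ± 28.0 RPKM. Vldlr-positive replicate 1 stood apart from the other 2 of its group, at a root mean square difference of 0.221 and 0.214 (log2 scale, over 12116 genes), against 0.128 between those 2 and 0.132 to 0.153 among the Vldlr-negative libraries.

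The populations differed in most genes, so a called difference in a single gene is common background here. In 12116 genes that reached 1 RPKM in 3 or more libraries, limma on log2(RPKM + 1) called 55.9% at a Benjamini-Hochberg adjusted p under 0.05, 29.7% higher and 26.1% lower in the Vldlr-positive libraries. Of the 8 tendon genes, 7 entered that test; 4 were called higher (Scx, Mkx, Egr2 and Eya2), 2 lower (Tnmd and Eya1), and Egr1 was not called. Six2 was below the filter. The ranges of the groups did not overlap for 7 of the 8 genes, untested Six2 among them, against 62.9% of all genes tested. With libraries scaled by total reads alone, 3 of the 7 tested genes were higher and 3 lower, where 15.4% and 45.6% of 12153 genes were. Eya1 passed the filter only through the Vldlr-negative libraries, where it was high, which fixed its direction. Tnmd, Eya2 and Eya1 also passed limma's test of a change beyond 1.5-fold, which 9.43% of all genes passed. Without Vldlr-positive replicate 1 the same 6 genes were called in the same direction, with log2 fold changes of 0.32 for Scx, 0.47 for Mkx, 0.58 for Egr2, 1.73 for Eya2, -1.23 for Eya1 and -1.76 for Tnmd, and Egr1 was at -0.01 and not called (limma adjusted p = 0.88).

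**Figure D1:**
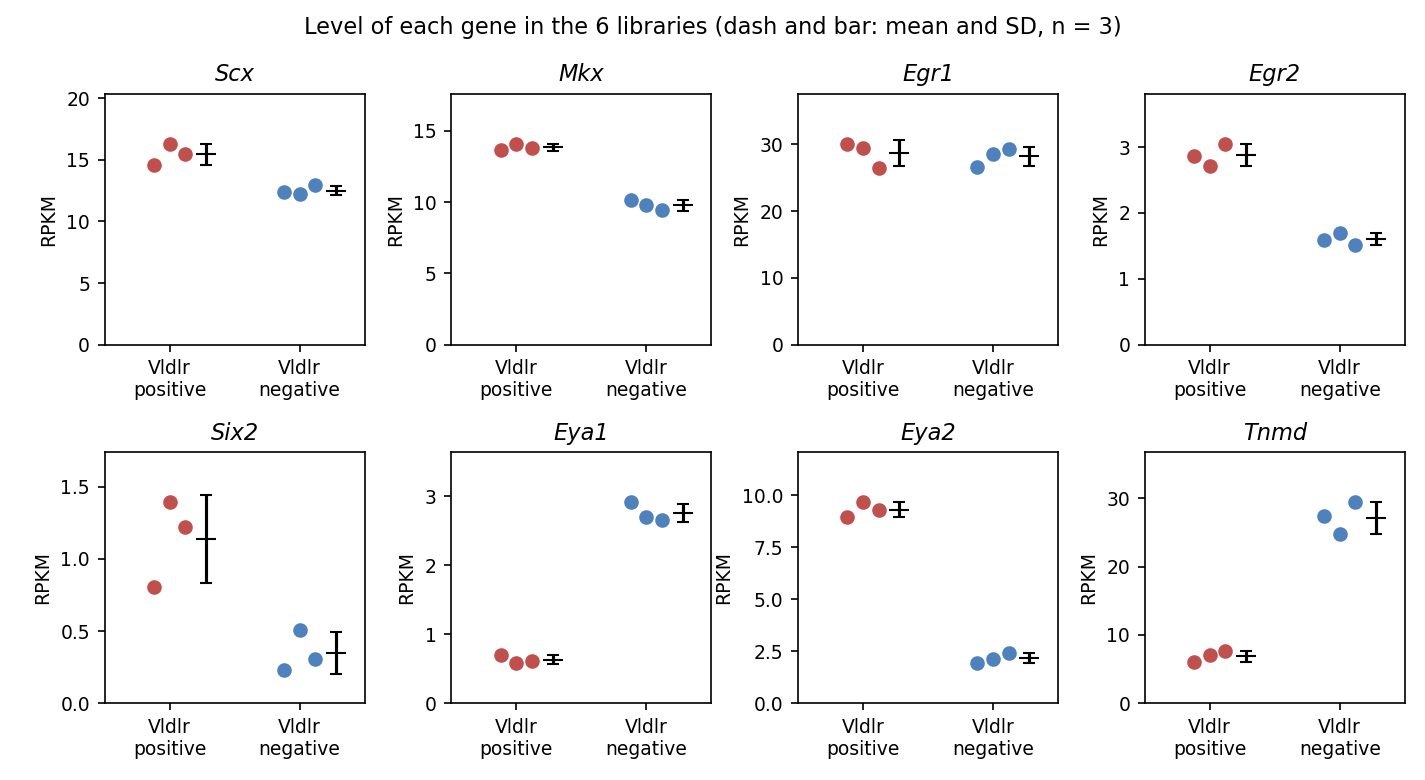
RPKM (y axis, from 0) of the 8 genes in the 3 Vldlr-positive (red) and 3 Vldlr-negative (blue) libraries, with the mean and SD beside the points. The groups overlap for Egr1 alone; Tnmd and Eya1 are the genes with the lower Vldlr-positive values.

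Tnmd was lower in the Vldlr-positive libraries and had the largest log2 fold change of the 7 tested genes on the log2(RPKM + 1) scale, though the ratios of mean RPKM were larger for Eya1 and Eya2. It was at 6.02, 6.99 and 7.61 RPKM in Vldlr-positive replicates 1 to 3, against 27.3, 24.7 and 29.4 RPKM in Vldlr-negative replicates 1 to 3. The lowest Vldlr-negative library was thus well above the highest Vldlr-positive one. The means were 6.88 ± 0.803 RPKM and 27.2 ± 2.34 RPKM (SD, n = 3 each), a 3.95-fold lower level (log2 fold change -1.84, SE 0.09, 95% interval -2.05 to -1.63, limma adjusted p = 8.6e-07). Only 246 of the 12116 tested genes had a larger log2 change in either direction, which places Tnmd within the top 2.04%. Its reads numbered 134 to 171 in the Vldlr-positive and 623 to 741 in the Vldlr-negative libraries. In bulk RNA, fewer Tnmd-expressing cells and less Tnmd RNA per cell cannot be told apart.

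Markers of other cell types moved with the groups. All 10 tested macrophage markers were lower in the Vldlr-positive libraries, with a summed level over 11 genes of 25.9 to 33.2 RPKM there and 573 to 696 RPKM in the Vldlr-negative libraries; Tyrobp was at 0 in all Vldlr-positive libraries. Of those 10 markers, 8 passed the filter only through the Vldlr-negative libraries, which fixed their direction. Among its leading genes, the lysozyme gene Lyz2 was at 27.4 ± 3.09 and 430 ± 38.5 RPKM, and Ctss, a cathepsin, at 0.0740 ± 0.0924 and 35.9 ± 4.39 RPKM in the Vldlr-positive and Vldlr-negative libraries. All 4 tested fat cell markers were lower too, with sums of 4.25 to 5.68 RPKM in the Vldlr-positive and 36.6 to 42.3 RPKM in the Vldlr-negative libraries, led by Adipoq and Fabp4; 1 of the 4 passed only through the Vldlr-negative libraries. Of 8 cartilage markers, led by Sox9 and Hapln1, 4 were tested, 2 higher and 2 lower, with sums of 17.4 to 19.4 RPKM in the Vldlr-positive and 16.3 to 17.0 RPKM in the Vldlr-negative libraries. Of 8 mural cell markers 6 were tested, 4 higher and 2 lower, with sums of 835 to 925 RPKM in the Vldlr-positive and 285 to 310 RPKM in the Vldlr-negative libraries, most of it Acta2 and Pdgfrb. Among the tested markers 1 cartilage and 2 mural genes passed the filter through 1 group only. The part of these markers in the Tnmd difference was not tested.

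The Tnmd gene lies on chromosome X (133850980 to 133865577, GRCm38, plus strand). The sequence just before its start is shown because Tnmd is the marker whose direction was opposite to Scx and Mkx; it is taken from RefSeq (GRCm38.p6, chrX:133850758-133850979, plus strand) and stops just before the first base of the annotated gene.
Tnmd upstream: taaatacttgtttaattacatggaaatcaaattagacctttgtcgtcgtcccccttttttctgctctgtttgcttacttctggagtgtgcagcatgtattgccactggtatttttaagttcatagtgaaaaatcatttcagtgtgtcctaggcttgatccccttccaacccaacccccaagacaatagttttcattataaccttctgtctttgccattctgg
A search of both strands of the 300-base Tnmd promoter window (250 bases before to 50 after the RefSeq start) found 0 matches to the E-box CANNTG bound by helix-loop-helix factors, to the Egr site GCGNGGGCG, to the Six-factor site TCAGGTT, to TATAAA or to the CArG box of serum response factor, so no letters are capitalised. Of 32851 RefSeq promoter windows of that length, 72.3% held the E-box, 5.55% the Egr site, 4.07% the Six-factor site, 13.6% TATAAA and 1.63% the CArG box. These are letter matches in this window and say nothing of sites elsewhere.

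Scx and Mkx, the factors on which the tendon matrix programme is thought to rest, were slightly higher where Tnmd was lower. Scx (chromosome 15, 76457452 to 76459458, plus strand) was at 14.6, 16.3 and 15.5 RPKM in the Vldlr-positive libraries, against 12.4, 12.2 and 12.9 RPKM in the Vldlr-negative libraries. All Vldlr-positive values were above all Vldlr-negative ones, by a narrow margin. The means of 15.4 ± 0.866 and 12.5 ± 0.379 RPKM gave a 1.24-fold higher level (log2 fold change 0.28, SE 0.06, 95% interval 0.15 to 0.42, limma adjusted p = 0.0036). When libraries were scaled by total reads alone, which shifted the log2 fold changes of all genes by a median of -0.17, the difference shrank to 0.10 and was not called (limma adjusted p = 0.19). Scx lies inside the Bop1 gene on the opposite strand, with 0 shared exon bases. Bop1, a ribosome assembly factor, was at 16.3 to 18.9 RPKM in the Vldlr-positive and 10.8 to 11.9 RPKM in the Vldlr-negative libraries; whether reads of Bop1 precursor RNA count toward Scx was not tested.

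Mkx (chromosome 18, 6934518 to 7004780, minus strand) showed little spread, at 13.7, 14.1 and 13.8 RPKM in the Vldlr-positive libraries, against 10.1, 9.77 and 9.42 RPKM in the Vldlr-negative libraries. The groups did not overlap. Mkx was 1.42-fold higher, at 13.9 ± 0.225 against 9.78 ± 0.366 RPKM (log2 fold change 0.46, SE 0.05, 95% interval 0.34 to 0.58, limma adjusted p = 1.2e-04). The Mkx difference was called under total-read scaling as well (0.28, limma adjusted p = 0.0021), and 718 to 958 reads lay behind each value.

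Ratios of 2 of these genes within a library do not depend on how libraries are scaled. The ratio of Tnmd to Scx RPKM was 0.413, 0.429 and 0.493 in the Vldlr-positive libraries, against 2.21, 2.03 and 2.28 in the Vldlr-negative libraries. Tnmd was thus the lower of the 2 in every Vldlr-positive library and the higher in every Vldlr-negative one. On the log2 scale the ratio differed by -2.27 (SE 0.09; exact two-sided permutation p = 0.1, adjusted p = 0.1 over 4 ratios, the smallest that 3 against 3 allows). The ratio of Mkx to Scx differed less, at 0.937, 0.865 and 0.892 in the Vldlr-positive libraries, against 0.821, 0.801 and 0.729 in the Vldlr-negative libraries. These ranges were apart as well, with a log2 difference of 0.20 (SE 0.06; exact two-sided permutation p = 0.1, adjusted p = 0.1).

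The helix-loop-helix partners and inhibitors of Scx were divided, with 2 of 9 tested genes higher, 4 lower and 3 not called. Of all genes tested, 29.7% were higher and 26.1% lower. The median log2 fold change of the list was -0.03 beside 0.02 over all genes tested. Among the 9 genes, 1 passed the filter only through the Vldlr-negative libraries. Id3 and Id1, which sequester E proteins, were 2.60-fold and 1.64-fold higher: Id3 was at 212 ± 12.4 against 81.6 ± 6.70 RPKM and Id1 at 56.2 ± 6.17 against 34.2 ± 1.72 RPKM in Vldlr-positive and Vldlr-negative libraries (limma adjusted p = 1.8e-06 and 2.1e-04). The remaining Id genes of the list did not share that direction. Id4 was 1.5-fold lower and Id2 was not called (limma adjusted p = 5.8e-04 and 0.65). The E protein gene Tcf4 was 1.83-fold lower at 4.67 ± 0.865 against 8.55 ± 0.308 RPKM (limma adjusted p = 3.6e-04). Tcf12, also an E protein gene, was called lower as well (limma adjusted p = 0.011). Id4, Id2 and Tcf12 were added after their values were seen. The E protein gene Tcf3 (E2A) was at 18.9 ± 1.21 and 17.8 ± 0.0940 RPKM and was not called; it was picked after its values were seen.

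The TALE class relatives of Mkx moved in both directions, with 4 of 12 tested genes higher and 5 lower (median 0.01). The shares over all genes tested were 29.7% higher and 26.1% lower. Irx1 and Irx2, homeobox genes that both lie on chromosome 13, were 9.20-fold and 26.8-fold lower, at 0.692 ± 0.126 and 0.129 ± 0.0322 RPKM in Vldlr-positive against 6.37 ± 0.555 and 3.46 ± 0.295 RPKM in Vldlr-negative libraries (limma adjusted p = 2.4e-07 and 1.5e-07). Both passed the filter only through the Vldlr-negative libraries. The Hox cofactor gene Pbx3 was 1.98-fold lower, at 4.35 ± 0.199 against 8.60 ± 0.223 RPKM (limma adjusted p = 5.0e-06). With total-read scaling 2 genes of this class were higher and 6 lower, where 15.4% and 45.6% of all genes tested were.

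Eya1 and Eya2, closely related coactivators, moved in opposite directions. Eya2 (chromosome 2, 165595032 to 165771727, plus strand) was at 8.97, 9.66 and 9.29 RPKM in the Vldlr-positive libraries, against 1.94, 2.14 and 2.41 RPKM in the Vldlr-negative libraries. The groups were far apart beside a spread of under 1 RPKM within each. The level was 4.30-fold higher, at 9.31 ± 0.346 against 2.16 ± 0.237 RPKM (log2 fold change 1.71, SE 0.07, 95% interval 1.55 to 1.87, limma adjusted p = 3.1e-07), within the top 2.48% of all changes by size. Eya1 (chromosome 1, 14168954 to 14310235, minus strand) was at 0.701, 0.579 and 0.617 RPKM in the Vldlr-positive libraries, against 2.92, 2.70 and 2.66 RPKM in the Vldlr-negative libraries. Eya1 passed the filter only through the Vldlr-negative libraries, which fixed its direction. With no filter it was called lower as well (limma adjusted p = 2.6e-06). The level was 4.37-fold lower, at 0.632 ± 0.0624 against 2.76 ± 0.136 RPKM (log2 fold change -1.20, SE 0.06, 95% interval -1.35 to -1.05, limma adjusted p = 1.5e-06). On this scale low levels are compressed, and limma voom on worked-out reads gave -2.12 for Eya1 and 2.11 for Eya2.

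Within each library the ratio of Eya2 to Eya1 was 12.8, 16.7 and 15.1 in the Vldlr-positive libraries, against 0.665, 0.791 and 0.906 in the Vldlr-negative libraries. Eya1 was thus the more abundant of the 2 per length in every Vldlr-negative library, and Eya2 in every Vldlr-positive one. The log2 ratio differed by 4.03 (SE 0.16; exact two-sided permutation p = 0.1, adjusted p = 0.1), the largest of the 4 ratios compared.

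The other Eya genes, Eya3 and Eya4, were present at higher levels than Eya1 in both populations and were not called. Eya4 was at 13.2 ± 2.39 RPKM in the Vldlr-positive and 10.8 ± 0.863 RPKM in the Vldlr-negative libraries (limma adjusted p = 0.085), with Vldlr-positive replicate 1 the highest at 16.0 RPKM. Eya3 was at 7.73 ± 0.335 and 7.95 ± 0.358 RPKM (limma adjusted p = 0.63). Summed over the 4 genes, Eya levels came to 30.9 ± 1.87 RPKM in the Vldlr-positive and 23.7 ± 0.396 RPKM in the Vldlr-negative libraries. Eya2 made up 30.2% ± 2.72 of that sum in the Vldlr-positive libraries and 9.15% ± 1.16 in the Vldlr-negative ones, while Eya1 made up 2.04% ± 0.10 and 11.7% ± 0.413. Eya4 held the largest share of the 4 genes in all 6 libraries.

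**Figure D2:**
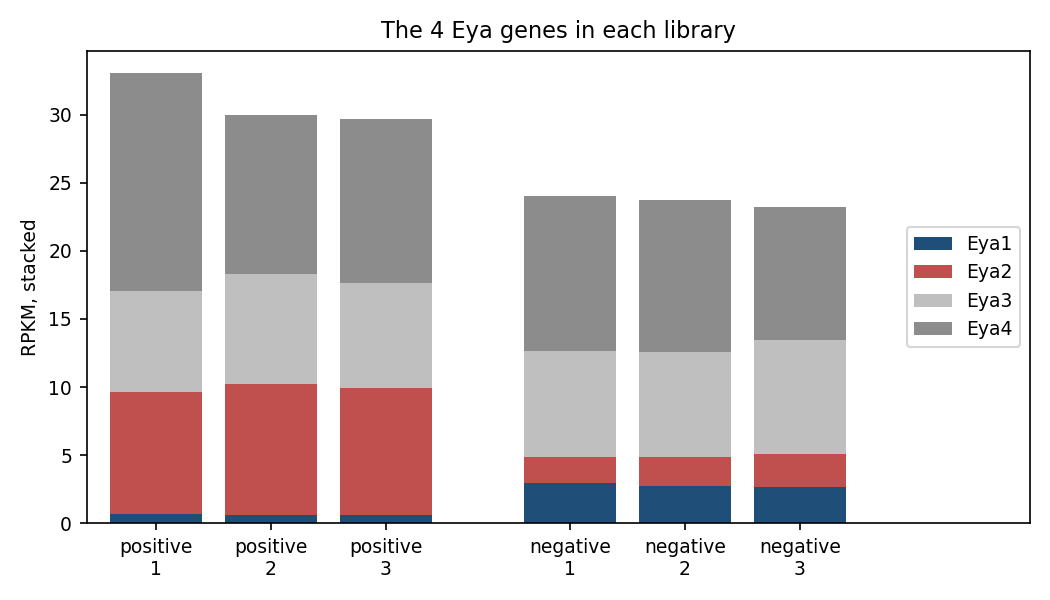
Stacked RPKM (y axis) of Eya1 to Eya4 in each of the 3 Vldlr-positive and 3 Vldlr-negative libraries. The Eya2 segment is 8.97 to 9.66 RPKM in the Vldlr-positive and 1.94 to 2.41 RPKM in the Vldlr-negative libraries, and the Eya1 segment is thin in the Vldlr-positive ones.

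Six2 (chromosome 17, 85684277 to 85688274, minus strand) was the least abundant of the transcription factors in the Vldlr-negative libraries. It was at 0.803, 1.39 and 1.22 RPKM in the Vldlr-positive libraries, against 0.228, 0.507 and 0.304 RPKM in the Vldlr-negative libraries. The groups did not overlap, but the values rest on 28, 49 and 43 reads in Vldlr-positive and 9, 20 and 12 reads in Vldlr-negative libraries. Six2 was below the filter and was not tested. With all 15711 genes tested and no filter, where 25.7% were called higher, it had a log2 fold change of 0.66 (limma adjusted p = 0.0023), and its mean RPKM was 3.29-fold higher.

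Of 9 Six-family, Eya and Dach relatives 7 were in the table and 4 were tested, with 1 higher, 0 lower and 3 not called (median 0.11). All genes tested were 29.7% higher and 26.1% lower. Under total-read scaling 0 of the list were higher and 2 lower, where 15.4% and 45.6% of all genes tested were. Dach1, a repressor partner of Six-family factors, was below the filter, at 0.118 ± 0.0351 RPKM in the Vldlr-positive and 0.553 ± 0.0363 RPKM in the Vldlr-negative libraries, and was picked after its values were seen.

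Skeletal muscle, where Six-family and Eya genes are also used, was represented by few and low markers. Of 9 muscle markers 3 were in the table (Pax3, Des and Acta1) and 0 passed the filter; their summed level was 1.18 to 1.64 RPKM in the Vldlr-positive and 1.43 to 1.75 RPKM in the Vldlr-negative libraries.

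Egr1 (chromosome 18, 34859823 to 34864984, plus strand) was the most abundant of the 8 genes in both populations and showed no called difference. It was at 30.1, 29.5 and 26.5 RPKM in the Vldlr-positive libraries, against 26.7, 28.6 and 29.4 RPKM in the Vldlr-negative libraries. The ranges overlapped almost fully. The means were 28.7 ± 1.96 and 28.2 ± 1.39 RPKM, and the 95% interval of the log2 fold change of 0.02 (SE 0.07, limma adjusted p = 0.79) was -0.13 to 0.17. Under total-read scaling Egr1 was lower in the Vldlr-positive libraries, at -0.17 (limma adjusted p = 0.049), where the log2 fold changes of all genes shifted by a median of -0.17.

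Egr2 (chromosome 10, 67535475 to 67542188, plus strand) was higher in the Vldlr-positive libraries, though at a low level. It was at 2.86, 2.71 and 3.05 RPKM in the Vldlr-positive libraries, against 1.60, 1.69 and 1.52 RPKM in the Vldlr-negative libraries. The groups did not overlap, with 153 to 172 reads in Vldlr-positive and 96 to 107 reads in Vldlr-negative libraries. The level was 1.8-fold higher, at 2.88 ± 0.169 against 1.60 ± 0.0872 RPKM (log2 fold change 0.57, SE 0.06, 95% interval 0.43 to 0.72, limma adjusted p = 1.4e-04). The ratio of Egr2 to Egr1 was 0.0951, 0.0920 and 0.115 in the Vldlr-positive libraries, against 0.0598, 0.0592 and 0.0516 in the Vldlr-negative libraries, a log2 difference of 0.78 (SE 0.12; exact two-sided permutation p = 0.1, adjusted p = 0.1). Egr1 made up 84.8% ± 2.22 of the summed level of Egr1, Egr2 and Egr3 in the Vldlr-positive libraries and 89.4% ± 0.726 in the Vldlr-negative ones.

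The set of RefSeq promoter windows used here held windows for 3 of the 8 genes, Egr2, Six2 and Tnmd. Egr2 has 5 windows, for 5 annotated starts, and 4 of them hold a CArG box, the motif of serum response factor, which 1.63% of all windows hold. The boxes lie at 2 places, shown with 10 bases on each side and the box in capitals (RefSeq, GRCm38.p6, plus strand, chr10:67537484-67537513 and chr10:67537787-67537816).
Egr2 upstream box: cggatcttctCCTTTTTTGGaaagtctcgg
Egr2 downstream box: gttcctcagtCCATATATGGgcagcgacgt
All 5 Egr2 windows held 0 Egr sites, and the Six2 window held 0 matches to any of the 5 motifs. A match is a match of letters only.

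Genes that act around the Egr factors were called in both directions. Of 9 tested Egr relatives, Nab corepressors and serum response factor genes, 2 were higher, 1 lower and 6 not called (median 0.06). Beside these counts, 29.7% of all genes tested were higher and 26.1% lower. The ternary complex factor gene Elk3 was at 15.2 ± 0.556 RPKM in Vldlr-positive and 11.1 ± 0.403 RPKM in Vldlr-negative libraries (1.37-fold higher, limma adjusted p = 3.0e-04). Srf itself was at 19.2 ± 1.47 and 16.2 ± 0.847 RPKM (limma adjusted p = 0.022), and Nab1, which represses Egr activity, was lower at 11.5 ± 2.28 against 15.1 ± 0.353 RPKM (limma adjusted p = 0.021). The count of called genes in this list was 6 without Vldlr-positive replicate 1, 1 without Vldlr-positive replicate 3 and 1 without Vldlr-negative replicate 1. With total-read scaling 1 was higher and 4 were lower, where 15.4% and 45.6% of all genes tested were.

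Other immediate early genes did not share one direction. Of 17 tested, 6 were higher, 3 lower and 8 not called, where 29.7% of all genes tested were higher and 26.1% lower. The number called was thus near the share over all genes. Their median log2 fold change was 0.10, or -0.08 with total-read scaling. Junb, an AP-1 subunit, was 1.81-fold higher at 36.0 ± 3.26 against 19.9 ± 0.843 RPKM (limma adjusted p = 3.0e-05). Klf4 and the nuclear receptor gene Nr4a1 were 3.42-fold and 3.12-fold lower, at 14.7 ± 1.28 and 3.37 ± 0.437 RPKM in Vldlr-positive against 50.1 ± 2.15 and 10.5 ± 0.837 RPKM in Vldlr-negative libraries (limma adjusted p = 3.3e-07 and 3.9e-06). Fos was at 3.37 ± 0.520 and 3.59 ± 0.161 RPKM (limma adjusted p = 0.49) and was picked after its values were seen.

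Egr2 is also the factor that drives myelin genes in Schwann cells, and Schwann markers were among the genes that differed between the populations. Of 13 markers 12 were in the table and 9 were tested, 7 higher and 2 lower, but 6 of the 7 passed the filter only through the Vldlr-positive libraries, which fixed their direction. Their summed level was 131 to 143 RPKM in the Vldlr-positive and 22.9 to 24.6 RPKM in the Vldlr-negative libraries, with the nerve growth factor receptor gene Ngfr the highest at 72.2 ± 2.41 and 4.98 ± 0.594 RPKM. The calcium-binding protein gene S100b, also a Schwann marker, went the other way, at 4.50 ± 0.819 and 15.4 ± 0.307 RPKM. Pmp2 was at 0 in all Vldlr-negative libraries. The myelin gene Mbp was at 0.406 ± 0.0930 RPKM in Vldlr-positive and 0.235 ± 0.0662 RPKM in Vldlr-negative libraries and was below the filter. Prx, also a myelin gene, was lower at 1.16 ± 0.0111 RPKM in Vldlr-positive against 1.72 ± 0.0533 RPKM in Vldlr-negative libraries (limma adjusted p = 0.0017); both were picked after seeing the values. Of 8 endothelial markers 5 were tested, 4 higher and 1 lower, each passing the filter through 1 group only, which fixed its direction. Their sums over all 8 were 14.8 to 15.5 RPKM in the Vldlr-positive and 3.41 to 4.06 RPKM in the Vldlr-negative libraries. Cdh5 and Tie1 were at 0 in all Vldlr-negative libraries, and Cdh5 was at 5.07 ± 0.195 RPKM in the Vldlr-positive ones. Emcn was at 4.20 ± 0.277 RPKM in Vldlr-positive and 0.0166 ± 0.00573 RPKM in Vldlr-negative libraries. The endothelial marker that was lower was Tek, at 0.496 ± 0.0685 RPKM in Vldlr-positive and 3.52 ± 0.309 RPKM in Vldlr-negative libraries. Tek was picked after its values were seen. The part of these cell types in the Egr2 difference was not tested.

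**Figure D3:**
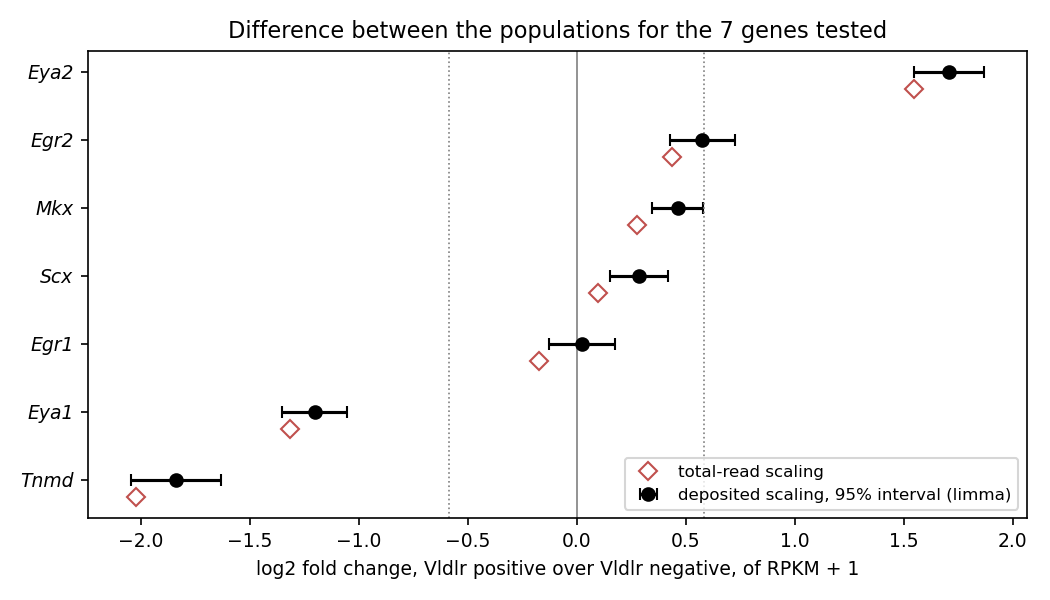
Log2 fold change of RPKM + 1 (x axis, Vldlr-positive over Vldlr-negative) of the 7 genes tested, with limma's 95% interval, and the same under total-read scaling (open diamonds). Dotted lines mark a 1.5-fold change; Eya2, Eya1 and Tnmd lie beyond them, and Egr1 spans 0.

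The order of the 8 genes by level differed between the populations mainly through Tnmd, Eya1 and Eya2. In the Vldlr-positive libraries the order was Egr1, Scx, Mkx, Eya2, Tnmd, Egr2, Six2 and Eya1, and no neighbours overlapped in range. In the Vldlr-negative libraries it was Egr1, Tnmd, Scx, Mkx, Eya1, Eya2, Egr2 and Six2, where Egr1 (26.7 to 29.4 RPKM) and Tnmd (24.7 to 29.4 RPKM) overlapped. Set among all 15711 genes by mean RPKM, Tnmd stood at percentile 63.6 in the Vldlr-positive and 89.7 in the Vldlr-negative libraries, and Eya2 at percentile 70.3 and 36.9. Scx (80.8 and 77.3) and Egr1 (89.5 and 90.3) moved little in that rank. The coefficient of variation was smallest for Mkx in the Vldlr-positive libraries (1.62%) and for Scx in the Vldlr-negative libraries (3.03%), and largest for Six2 in both (26.6% in Vldlr-positive and 41.6% in Vldlr-negative libraries).

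Tendon matrix genes, several of which Scx, Mkx or Egr1 are known to act on, were mostly higher in the Vldlr-positive libraries, unlike Tnmd. Of 14 genes 12 were higher and 2 lower, where 29.7% of all genes tested were higher and 26.1% lower. The list was chosen with earlier results of these data known, so its counts are descriptive. The median log2 fold change was 0.92 beside 0.02 over all genes tested. Under total-read scaling 9 were higher and 2 lower, against 15.4% and 45.6% of all genes tested. Those with the lowest adjusted p were Thbs4, a thrombospondin of tendon matrix, Fmod, a collagen-binding proteoglycan, and Comp, a pentameric matrix protein. Fmod had a log2 fold change of 3.45, Comp of 2.96 and Thbs4 of 8.29 (limma adjusted p = 5.6e-09, 2.3e-08 and 6.4e-11). The 2 that were lower were Kera, a cornea and tendon proteoglycan, at 63.2 ± 1.67 against 103 ± 4.12 RPKM, and Col3a1, at 928 ± 48.9 against 1079 ± 42.1 RPKM; these 2 were picked after seeing the values. For a change beyond 1.5-fold, 8 of the 14 genes passed, against 9.43% of all genes tested.

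Ligands and receptors that act upstream of Scx were also divided. Of 14 tested TGF-beta, BMP and GDF genes 5 were higher, 5 lower and 4 not called (median 0.11, or -0.04 with total-read scaling). Over all genes tested the shares were 29.7% higher and 26.1% lower. Among the lower genes, 1 passed the filter only through the Vldlr-negative libraries. The ligand genes Tgfb3 and Tgfb1 were 2.25-fold and 2.71-fold higher, at 111 ± 1.65 and 23.1 ± 1.87 RPKM in Vldlr-positive against 49.3 ± 1.07 and 8.51 ± 0.253 RPKM in Vldlr-negative libraries (limma adjusted p = 4.2e-07 and 8.9e-07). The receptor gene Tgfbr2 was 2.16-fold lower, at 27.6 ± 0.807 against 59.4 ± 1.47 RPKM (limma adjusted p = 6.5e-07). Smad7, an inhibitor that TGF-beta induces, was 2.20-fold higher at 11.5 ± 0.701 against 5.21 ± 0.444 RPKM (limma adjusted p = 8.2e-06) and was picked after its values were seen.

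Tnmd belongs to a small group of genes with a BRICHOS domain, of which 4 others were in the table. Itm2a was 4.36-fold lower, at 136 ± 8.73 against 592 ± 19.9 RPKM (log2 fold change -2.12, limma adjusted p = 7.7e-08). Itm2b and Itm2c were higher, at 666 ± 41.5 against 543 ± 21.6 RPKM and 295 ± 30.7 against 203 ± 10.6 RPKM (limma adjusted p = 0.0074 and 0.0012). Chondromodulin (Cnmd), the closest relative of Tnmd and a cartilage protein, was at 1.82 ± 0.472 and 1.61 ± 0.111 RPKM (limma adjusted p = 0.50) and was picked after its values were seen.

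**Figure D4:**
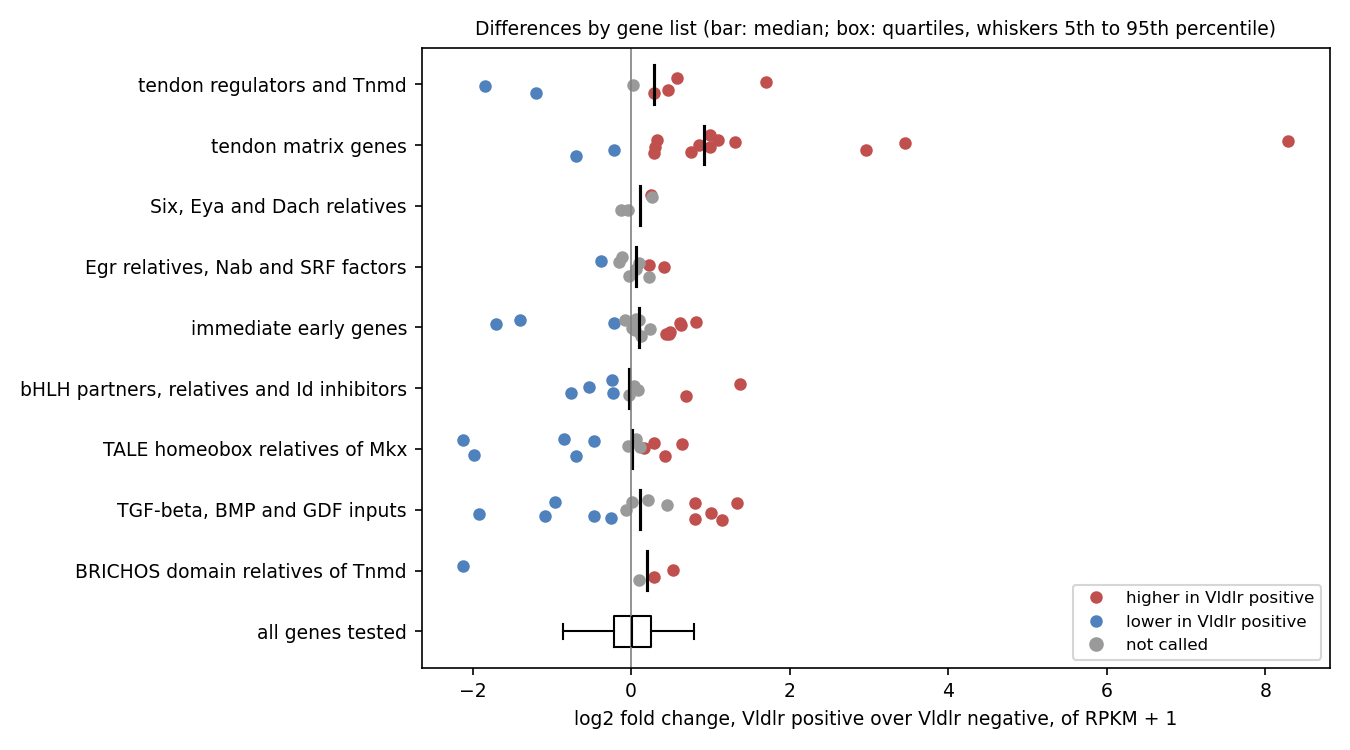
Log2 fold change of RPKM + 1 (x axis, Vldlr-positive over Vldlr-negative) of each tested gene by list, coloured by call, with the median of each list as a bar and all 12116 tested genes as a box. The tendon matrix list has a median of 0.92 and reaches 8.29 at Thbs4, with Kera and Col3a1 below 0. The other lists lie on both sides of 0 as well.

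Genes whose profile over the 6 libraries was most like that of Tnmd, Scx and Eya2 were found by the root mean square difference of centred log2(RPKM + 1) values among 6748 genes with a mean of at least 5 RPKM. For Tnmd they were Ly6c1, a surface antigen gene (difference 0.06), the homeobox gene Barx1 (0.07) and Pdpn, which encodes the membrane glycoprotein podoplanin (0.08). Pdpn was at 41.1 to 45.6 RPKM in the Vldlr-positive and 142 to 162 RPKM in the Vldlr-negative libraries. For Eya2 they were the chemokine gene Cx3cl1, the aminopeptidase gene Anpep and Pcolce2, an enhancer of procollagen processing (0.05 to 0.06). For Scx, whose difference was small, they were Snx3, Tma7 and Necap2 (0.01 each). With 2 groups of 3 libraries this likeness rests mainly on the difference between the groups.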

How the data were processed

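RNA of 6 libraries was sequenced from SMARTER mRNA libraries, per the labels' protocols. The authors deposited 1 table of RPKM values; the unit was inferred, since the table does not name it. The submitters' processing notes list build mm10, bcl2fastq 1.8.4 and Cell Ranger without saying what each did. Aligner, counting method and strand use: not given in the sources used here. After multiplying by merged exon lengths of GENCODE M21 (GRCm38), 15690 of 15691 genes gave whole reads in every library (tolerance 0.01 reads); 20 names that had become dates had no length. Composition factors in the deposited RPKM were 0.928 to 1.07, and 1 read in 1 kb is worth 0.0537 to 0.0608 RPKM.

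Genes that reached 1 RPKM in 3 or more libraries were tested with limma 3.58.1 (R 4.3.3, trend and robust, statmod 1.5.0) on log2(RPKM + 1), with group as the only term and Benjamini-Hochberg adjustment over all genes tested; an adjusted p under 0.05 was a call. This scale compresses the changes of low genes. Folds are ratios of mean RPKM. Ratios of 2 genes were compared by exact permutation on log2 with 0.1 RPKM added.

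The genes, lists and the naming rule were chosen with earlier results of these data known. The rule named, per pathway list, up to 3 called genes with the lowest adjusted p, or every called gene where 3 or fewer were called, or up to 2 with the highest mean where fewer than 2 were; per marker list, the 2 with the highest mean and any at 0 in a group; and the 3 genes most like Tnmd, Scx and Eya2. Of the genes so named or picked, 2 are not reported here. Mkl1 and Mkl2 were matched to Mrtfa and Mrtfb. Alternatives were other scalings, pseudocounts, filters and models, a replicate block and leaving out each library.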

Additional observations from a re-analysis of the deposited data

How the results depend on the processing

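Tnmd, Eya1 and Eya2 kept their direction and call in every alternative that tested them, with log2 fold changes of -2.03 to -1.81, -2.12 to -1.19 and 1.55 to 2.11 over the scalings, filters and models. For Eya1 the filter fixed the direction in all of these except the fit with no filter. Scx was 0.10 with total-read scaling, not called. Against a 1.5-fold change Scx (0.28), Mkx (0.46) and Egr2 (0.57) were not called. That test used log2(RPKM + 1), which compresses low levels. Egr2 was at 0.81 with a pseudocount of 0.1 and at 0.84 with limma voom on worked-out reads. Neither of those fits was tested against a 1.5-fold change. Egr1 turned to -0.17 with total-read scaling, where it was called, and ranged from -0.016 to 0.078 with 1 library left out, not called. Six2 was called with no filter (0.66) and moved to 1.49 with a pseudocount of 0.1. With a pseudocount of 1 in place of 0.1 the log2 ratios moved to 2.91 for Eya2 to Eya1, -2.12 for Tnmd to Scx and 0.55 for Egr2 to Egr1. All genes called numbered 6769, and 1143 against a 1.5-fold change. Against that change the tendon matrix list had 8 called genes in place of 14, the Six-family, Eya and Dach list 0 in place of 1, the Egr list 0 in place of 3, the immediate early list 2 in place of 9, the helix-loop-helix list 1 in place of 6, the TALE list 3 in place of 9 and the BRICHOS list 1 in place of 3. In the Six-family, Eya and Dach list, upper-quartile scaling gave 2 higher and 0 lower, and total-read scaling 0 higher and 2 lower. With no filter 1 was higher and 1 lower. That list had 1 to 2 called genes with a library left out. The Egr list had 5 with total-read scaling and 1 to 6 with a library left out. The cause of these changes was not tested. Deviations of same-numbered libraries correlated over genes at 0.303 and 0.307 for numbers 1 and 3 but at -0.0611 for number 2, so the numbers were not taken as pairs; a replicate block gave 2 called genes in the Six-family, Eya and Dach list and changed no other call or count by over 1.5 times. Eya1 and Egr2 could not be fitted with a filter at 5 RPKM. Depth limits Six2 most, with 9 reads in 1 library.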

Other observations

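The 4 homeobox genes of the Irx family in the table divided by their place in the genome. Irx4 and Irx6 were not in the table. Irx1 and Irx2, on chromosome 13 (71957921 to 71963723 and 72628820 to 72634198, GRCm38), were at 0.692 ± 0.126 and 0.129 ± 0.0322 RPKM in the Vldlr-positive and 6.37 ± 0.555 and 3.46 ± 0.295 RPKM in the Vldlr-negative libraries (SD, n = 3 each). Irx3 and Irx5, on chromosome 8 (91798525 to 91802067 and 92357625 to 92376286), were at 15.2 ± 1.20 and 8.28 ± 0.286 RPKM in the Vldlr-positive and 11.1 ± 0.395 and 4.93 ± 0.315 RPKM in the Vldlr-negative libraries, both called higher (limma adjusted p = 9.7e-04 and 4.3e-05). Irx1 and Irx2 passed the filter only through the Vldlr-negative libraries, which fixed their direction. The pattern was seen after the values were known, over 4 genes, and was not tested.

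Gdf7, a growth factor of the BMP family that induces tendon-like tissue, was 8.10-fold lower, at 0.666 ± 0.175 RPKM in the Vldlr-positive and 5.40 ± 1.44 RPKM in the Vldlr-negative libraries (limma adjusted p = 1.5e-05). It passed the filter only through the Vldlr-negative libraries, which fixed its direction. Bmp4 was higher at 87.0 ± 5.02 against 49.2 ± 2.18 RPKM (limma adjusted p = 1.4e-05).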
